A study of Mus musculus with 20 samples.

Results

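The genes described here are 40 mouse genes of the G2 phase and of mitosis, read in RNA-seq counts of the hepatoma line Hepa-1. They were chosen by name from knowledge of the cell division cycle, with earlier results of these data known, and found by matching the gene identifiers of the count table to mouse symbols. All 40 were among the 23373 gene identifiers of the table, and all 40 passed the filter on low counts that left 14343 genes to test. By role they were 6 genes of the CDK1 kinase with its cyclins and phosphatases, 4 of anaphase and its ubiquitin machinery, 3 mitotic kinases and 5 genes of the spindle checkpoint. The others were 8 kinesins and spindle proteins, 5 genes of the kinetochore and centromere, 4 of cytokinesis, 2 chromosomal passengers, 2 genes of chromosome structure and proliferation, and 1 transcription factor.

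Cells enter mitosis when CDK1, bound to a B-type cyclin and freed of inhibitory phosphates by CDC25 phosphatases, becomes active. The spindle checkpoint then holds the anaphase-promoting complex in check until every kinetochore is attached, and CDC20 with UBE2C lets that complex mark cyclin B and securin for destruction. Most of these genes are transcribed late in the cell cycle under the DREAM, B-MYB and FOXM1 complexes, which are known to act through CHR and CCAAT elements near the start of transcription, and the p53 target p21 is known to keep them repressed after DNA damage.

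Hepa-1 is a single established mouse hepatoma line. Its duplicate libraries are not said to come from separate cultures, so every p-value here measures spread among libraries, which may be only technical. There were 20 libraries in 10 groups of 2, and every group ended with 8 hours of the solvent DMSO or of benzo[a]pyrene (B[a]P), a ligand of the aryl hydrocarbon receptor whose metabolites damage DNA. At passage 20 the groups were control-grown cells under DMSO, control-grown cells under B[a]P, cells grown for 20 passages with hexavalent chromium, Cr(VI), under DMSO, and the same under B[a]P. At passage 25 the groups were control-grown cells and cells grown for 25 passages with Cr(VI), each under DMSO or B[a]P, and, again under either agent, recovered cells, taken off Cr(VI) after 20 passages and grown on for 5 passages. The labels give 0.5 mM Cr(VI) and 5 mM B[a]P, which are repeated here as labelled although the study's title speaks of low concentrations, and titles of the later set carry 27 where the label says passage 25.

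Total counts were 20976045 to 37930720 a library, and the raw count of a member gene in a library was between 93 for Ttk and 18725 for Top2a. Levels below are in CPM, that is, counts divided by a library size that TMM had scaled. Those of the cell type markers in this paragraph were divided by the unscaled library total instead. Cyp1a1, the cytochrome P450 gene induced through the aryl hydrocarbon receptor, was at 25.1 to 62.4 CPM in the 10 DMSO libraries and at 930 to 2089 CPM in the 10 B[a]P libraries, so the agent labels and the counts went together. Of 12 hepatocyte markers, 5 stayed under 1 CPM in every library, Apoa1 and Hnf4a among them, while Alb was at 831 to 4391 CPM and Trf at 612 to 1999 CPM. Markers of macrophages summed to 79.5 to 128 CPM and those of endothelium to 1.85 to 8.33 CPM. The stromal list, led by Dcn and Col1a1, summed to 404 to 1736 CPM, and the cholangiocyte list, led by Krt7, to 617 to 1957 CPM. Col1a2, Lum and Lrat, 3 of the 10 stromal genes, stayed under 1 CPM in every library. So did Epcam and Cftr, 2 of the 6 cholangiocyte genes, as well as 3 of 8 macrophage and 4 of 7 endothelial genes. In bulk RNA, a smaller share of cells in G2 and mitosis and less of a transcript per cell cannot be told apart.

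In control-grown cells under DMSO at passage 20, the most abundant of the 40 per kilobase of exon were Cdc20 at 108 CPM per kb, the activator of the anaphase-promoting complex, and Top2a at 104, the topoisomerase that untangles sister chromatids. Racgap1 at 100, a subunit of the central spindle's centralspindlin complex, and Ube2c at 91.2, the conjugating enzyme of the anaphase-promoting complex, came next. The lowest were Mad2l1 at 7.41 CPM per kb, a checkpoint protein that binds CDC20, Cenpf at 8.01, a large kinetochore protein, and Ttk at 8.47, the checkpoint kinase MPS1. This order compares levels per length in 1 group and holds neighbours whose levels differed little.

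**Figure D1:**
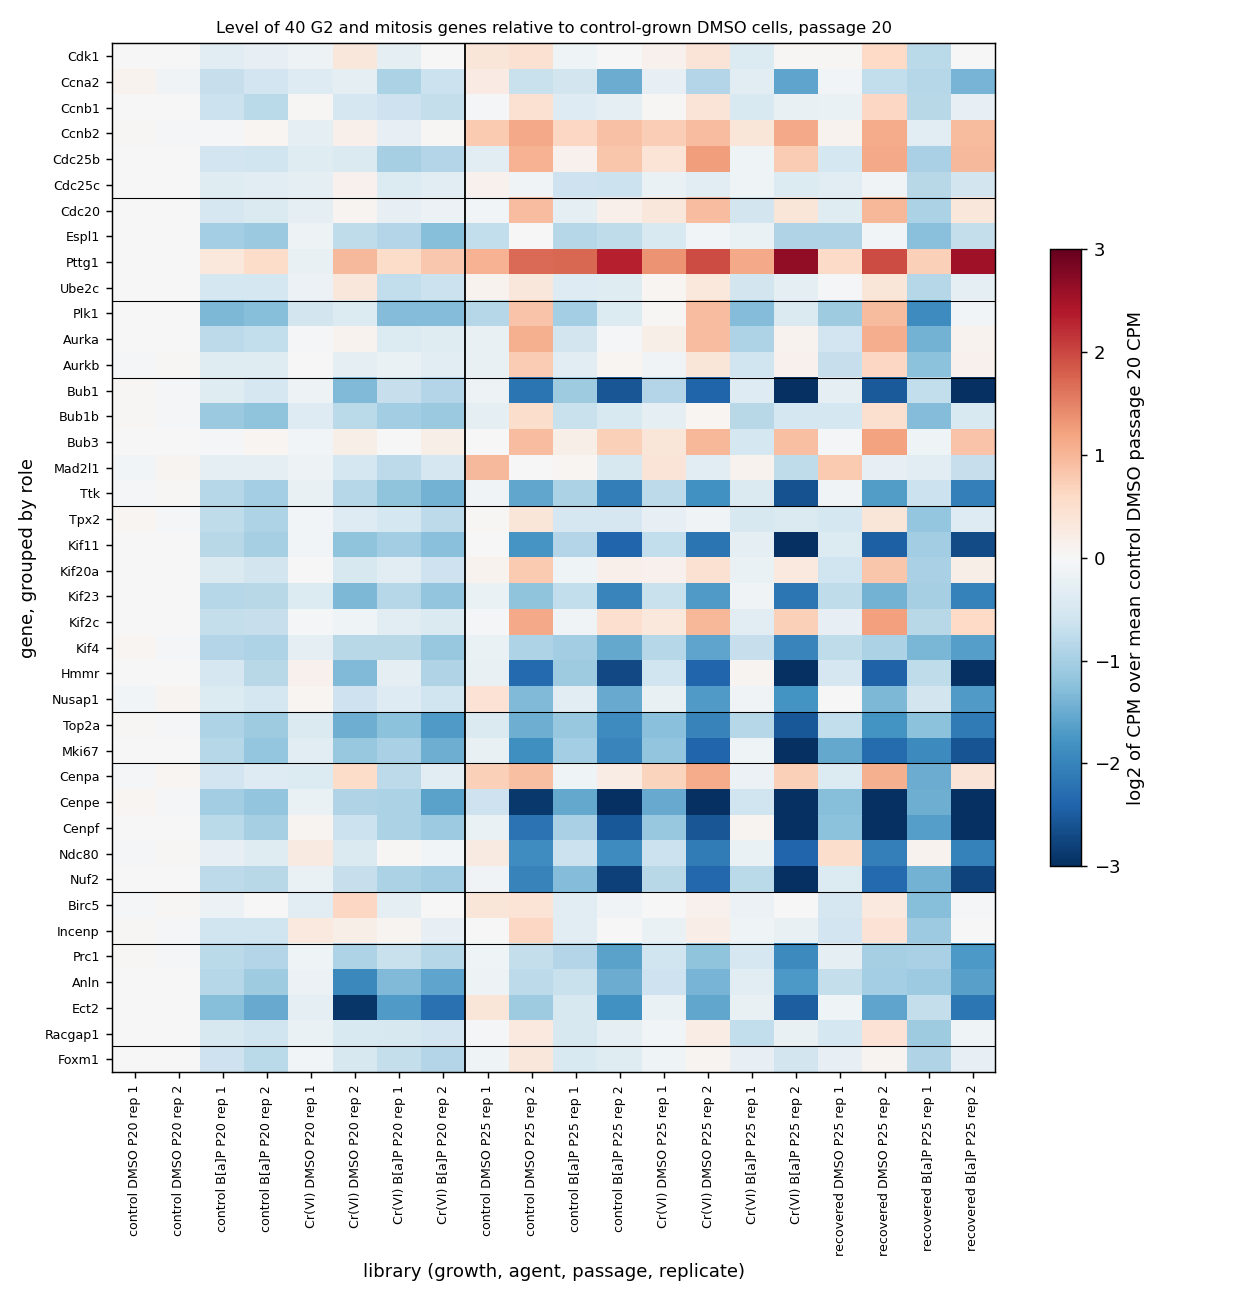
The colour gives the log2 ratio of each gene's CPM (rows, grouped by role) in each library (columns, passage 20 left of the line) to its mean in control-grown DMSO cells of passage 20, with colours saturated beyond 3. The B[a]P columns of passage 20 are mostly blue, and at passage 25 replicate 2 is blue for one set of genes, such as Cenpe, and red for another, such as Plk1.

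The libraries of passage 25 differed by replicate number, and the 40 genes split with them. In replicate 2, 18 of the 40 were lower than in replicate 1 in all 6 groups, against 36.9% of the 14343 genes, and 17 were higher in all 6, against 33.8%. The lower set held the motor Cenpe, the kinetochore genes Cenpf, Ndc80 and Nuf2, the checkpoint kinases Bub1 and Ttk, and Top2a, Mki67, Hmmr and Ect2. The higher set held Plk1, Aurka, Aurkb, Cdk1, Ccnb1, Ccnb2, Cdc20, Cdc25b, Ube2c and Pttg1. Cenpe, the kinesin that carries chromosomes to the spindle equator, was at 104 CPM in replicate 1 and 21.7 CPM in replicate 2 of control-grown DMSO cells, while Plk1, the polo-like kinase of mitotic entry, was at 84.7 and 279 CPM in the same libraries. These were differences between libraries of 1 group. At passage 25 the 100 genes with the highest counts held 29.6 to 34.3% of each replicate 2 library and 15.7 to 26.0% of each replicate 1 library. Such a split was not seen at passage 20 in control-grown cells, where no member differed by more than 2-fold between replicates under either agent. Of all genes, 2.45% did so there under DMSO and 1.58% under B[a]P.

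Across the 40 genes the replicate difference at passage 25 (the median over the 6 groups, on the log2 scale) was higher for genes with a higher GC content of the transcript, with Spearman's rho of 0.80 and Pearson's r with log2 GC content of 0.79. The points share all 12 libraries. Over 13482 genes rho was 0.64. With genomic span rho was -0.60 for the 40 and -0.28 for 14296 genes. Another library stood apart at passage 20, replicate 2 of Cr(VI)-grown DMSO cells, in which 7 of the 40 genes and 32.2% of all genes differed by more than 2-fold from replicate 1. Its 100 most counted genes took 25.4% of the counts, against 16.7% in replicate 1. Ect2, the exchange factor that activates RhoA for cytokinesis, was at 65.4 CPM in replicate 1 and 10.5 CPM in this library.

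**Figure D2:**
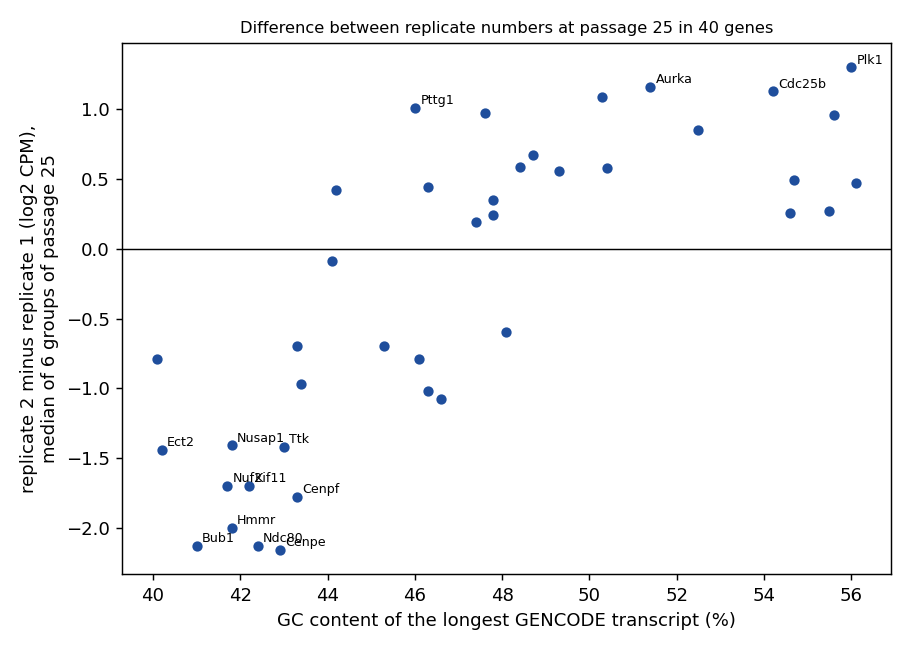
Each point is 1 of the 40 genes; the x axis is the GC content of its longest GENCODE transcript in percent and the y axis the log2 CPM of replicate 2 minus replicate 1, as the median of the 6 groups of passage 25. GC-poor genes such as Cenpe at -2.16 lie below 0 and GC-rich genes such as Plk1 at 1.30 above it.

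Because same-numbered libraries of passage 25 deviated together, results are given from the planned fit, with no term for replicate number, and from a second fit with a replicate block at passage 25 only, called the paired fit here. Both are edgeR quasi-likelihood tests over all 20 libraries with Benjamini-Hochberg adjustment over the 14343 genes and a threshold of 0.05. Comparisons over both passages average the effects at passage 20 and passage 25. The block rests on a pattern seen in these same libraries. At passage 20 it pairs nothing, and fold changes there are nearly those of the planned fit. Smaller p at that passage come from the estimate of spread, which all 20 libraries share.

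In control-grown cells B[a]P went with lower levels of nearly the whole set. Over both passages the log2 fold change was negative for 39 of the 40, with a median of -0.63 (quartiles -0.80 and -0.51), beside a median of -0.02 over all genes. In the planned fit 0 of the 40 passed the threshold, where 1.27% of all genes were lower and 0.934% higher, and 11 of the 40 had an unadjusted p under 0.05, as did 11.7% of all genes. The DESeq2 test called 1, Bub1b, beside 2.85% of all genes lower and 2.29% higher. In the paired fit 20 fell and 0 rose, where 8.31% of all genes fell and 7.02% rose. A block within each passage gave 26 that fell, beside 9.15% of all genes that fell and 7.57% that rose. Leaving out all replicate 2 libraries of passage 25, without a block, left 5 that fell, beside 3.38% of all genes that fell and 3.74% that rose.

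The member with the smallest p was Bub1b, which encodes BUBR1, a part of the mitotic checkpoint complex. It was at 120 and 115 CPM under DMSO and 54.3 and 50.6 under B[a]P at passage 20, and at 96.1 and 170 under DMSO and 73.8 and 85.3 under B[a]P at passage 25. Neither passage had an overlap between the agents. Its log2 fold change was -0.95 ± 0.28 (SE), with an adjusted p of 0.116 in the planned fit and 0.00123 in the paired fit, where it fell. Tpx2, which activates Aurora A on spindle microtubules, was at 263 and 244 CPM under DMSO and 149 and 134 under B[a]P at passage 20. At passage 25 it was at 259 and 325 under DMSO and 180 and 179 under B[a]P, again with no overlap. Tpx2 had a log2 fold change of -0.77 ± 0.24, with an adjusted p of 0.146 and, in the paired fit, 0.00647.

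Foxm1, the transcription factor that drives many of the other genes, was at 178 and 178 CPM under DMSO and 115 and 102 under B[a]P at passage 20, and at 164 and 227 against 129 and 140 at passage 25. Its log2 fold change was -0.63 ± 0.21, with an adjusted p of 0.197 and 0.0142 in the paired fit. Espl1, the separase that cleaves cohesin, was at 98.2 and 97.6 CPM under DMSO and 48.7 and 45.1 under B[a]P at passage 20. At passage 25 the gap was narrower, with 58.4 and 96.3 against 53.8 and 58.0. The Espl1 log2 fold change was -0.77 ± 0.27, with an adjusted p of 0.229 and 0.0323 in the paired fit. Kif4, the chromokinesin of the anaphase midzone, was at 82.7 and 76.1 CPM against 43.1 and 41.5 at passage 20, and at 68.7 and 42.0 against 38.8 and 27.5 at passage 25. Kif4 had a log2 fold change of -0.83 ± 0.30, with an adjusted p of 0.234 and 0.00669 in the paired fit. None of these 3 had an overlap between the agents at either passage. Of all genes, 39.0% were lower without overlap at passage 20 and 11.7% at passage 25. Bub1b, Tpx2 and the genes of this paragraph were picked by smallest p in these same libraries, so their separation is no separate support.

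Among the CDK1 genes, all 6 log2 fold changes were negative and 3 fell in the paired fit, Ccna2, Ccnb1 and Cdc25c. Ccnb1, cyclin B1, was at 162 and 166 CPM under DMSO and 105 and 92.9 under B[a]P at passage 20, and at 160 and 226 against 126 and 137 at passage 25, so it was lower in every B[a]P library than in any DMSO library of its passage. Ccnb2, cyclin B2, had a log2 fold change of -0.11, and Cdk1 itself one of -0.39, so the members of 1 kinase complex did not share 1 value. Of the 3 mitotic kinases, Plk1 and Aurka fell in the paired fit. Plk1 was at 156 and 151 CPM under DMSO and 60.7 and 63.4 under B[a]P at passage 20. At passage 25 it was at 84.7 and 279 against 76.4 and 115, where the groups overlapped and the difference within pairs was -0.15 in replicate 1 and -1.28 in replicate 2. Plk1 had a log2 fold change of -1.12 ± 0.50 in the planned fit, with an adjusted p of 0.401. It fell in the paired fit, with an adjusted p of 0.00539.

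The spindle checkpoint genes ran from -0.95 to -0.03. Bub1b, Ttk and Mad2l1 fell in the paired fit, while Bub3, the partner of BUB1 and BUBR1 at kinetochores, had a log2 fold change of -0.03. The 8 kinesins and spindle proteins lay between -0.86 for Kif11, the motor that separates spindle poles, and -0.48 for Kif20a, and 5 of them fell in the paired fit. Top2a fell there too. It was at 563 and 528 CPM under DMSO and 287 and 260 under B[a]P at passage 20, and at 407 and 198 against 248 and 148 at passage 25, where the groups overlapped.

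The kinetochore genes had a median of -0.79, and of these 5 only Nuf2, a subunit of the NDC80 complex, fell in the paired fit. Cenpe was at 166 and 155 CPM against 77.8 and 70.9 at passage 20, and at 104 and 21.7 against 55.6 and 16.9 at passage 25. Its log2 fold change was -0.95, with an adjusted p of 0.052 in the paired fit. Cenpf was at 90.5 and 87.9 CPM against 51.0 and 44.6 at passage 20, and at 77.5 and 19.3 against 45.3 and 15.3 at passage 25, with an adjusted p of 0.0598 in the paired fit. For Cenpe and Cenpf the replicates of passage 25 were thus further apart than the agents, although both pairs differed the same way. The cytokinesis genes had a median of -0.79 and Ect2 a value of -1.10, and of these 4 Prc1 and Racgap1 fell in the paired fit. Neither chromosomal passenger, Birc5 nor Incenp, passed.

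Pttg1, which encodes securin, the inhibitor of separase, was the 1 member with a positive value, 0.55. It was at 51.0 and 51.7 CPM under DMSO and 63.8 and 75.8 under B[a]P at passage 20, and at 107 and 166 against 171 and 260 at passage 25. It was higher under B[a]P in all 4 same-numbered pairs and did not pass the threshold in either fit. Its partner Espl1 was lower under B[a]P in the same 4 pairs.

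**Figure D3:**
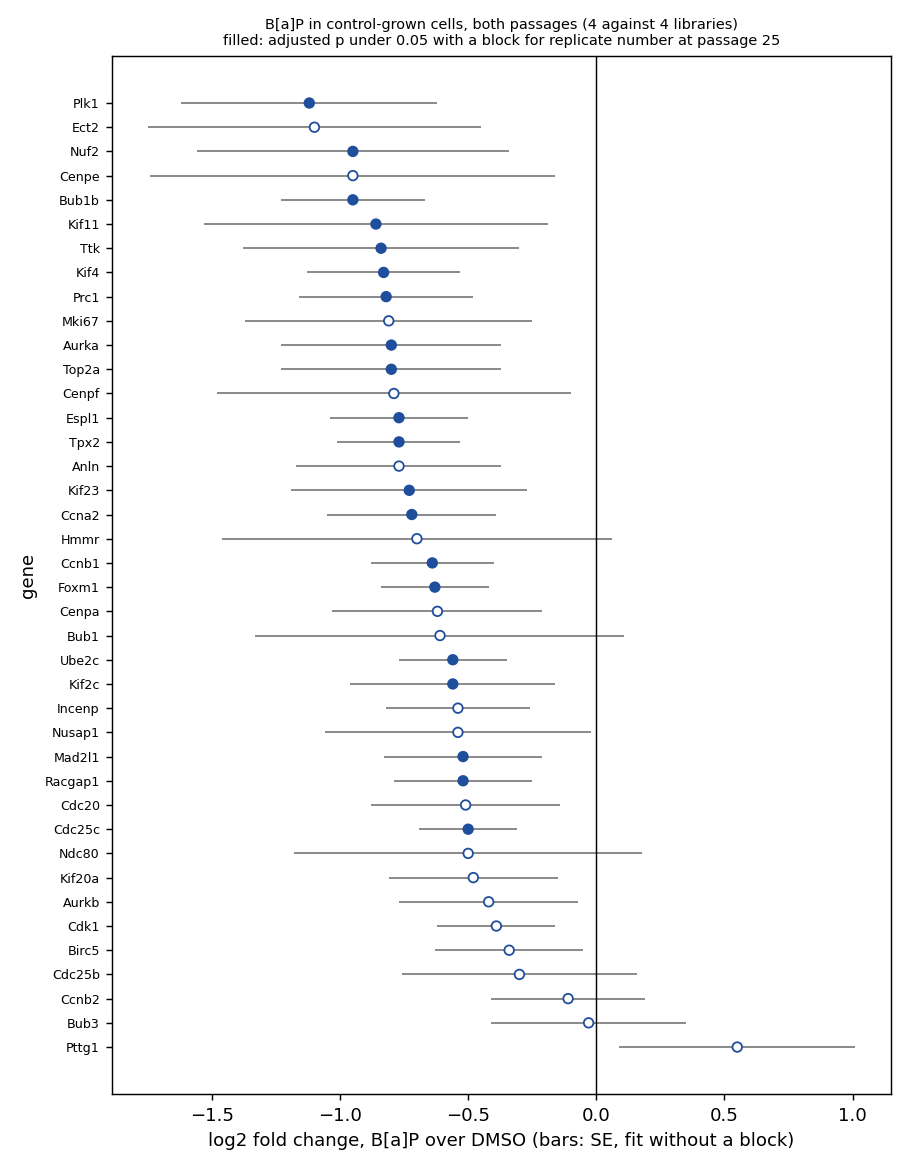
The 40 genes (y axis) are ordered by their log2 fold change for B[a]P over DMSO in control-grown cells over both passages (x axis, bars are SE of the planned fit, 4 against 4 libraries), and the 20 filled points have an adjusted p under 0.05 in the paired fit. Points run from Pttg1 at 0.55 down to Plk1 at -1.12.

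Promoter sequence was examined next. The 40 were chosen by name as G2 and mitosis genes, most of which are known to be controlled through CHR and CCAAT elements. The shares below describe that choice of genes and are no test of the response to B[a]P. A RefSeq promoter of GRCm38.p6, 250 bases before to 50 after the listed start, was matched by gene identifier for 33 of the 40 genes. TTTGAA, the letters of the commonest CHR element, searched on both strands, stood in 24 of these 33 (72.7%), against 20.2% of 27025 genes with an entry and 15.2% of the 11159 of them that were tested. TTCGAA, which reads alike on both strands, stood in 4 (12.1%, against 2.50% of the tested genes), and 1 or the other in 26 (78.8%, against 17.3% of the tested genes). CCAAT on either strand stood in 25 (75.8%, against 43.7% of the tested genes). GCGTG, the core to which the activated aryl hydrocarbon receptor is known to bind, stood in 20 (60.6%), against 53.0% of the tested genes. Any 2 of these motifs can overlap by at most 1 base. A match is a description of letters and not of a bound site.

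Windows of 100 bases before to 15 after the start are printed for 7 members with a negative B[a]P value that hold both TTTGAA and CCAAT, for Ccnb2, which holds both and hardly moved, and for Pttg1, which moved the other way. They read 5′ to 3′ on the strand of the gene, and capitals mark TTTGAA or TTCAAA and CCAAT or ATTGG.
Cdk1 (chr10:69352898-69353012, minus strand): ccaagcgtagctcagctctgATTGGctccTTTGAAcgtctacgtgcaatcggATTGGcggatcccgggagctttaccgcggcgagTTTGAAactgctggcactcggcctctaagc
Cdc20 (chr4:118437329-118437443, minus strand): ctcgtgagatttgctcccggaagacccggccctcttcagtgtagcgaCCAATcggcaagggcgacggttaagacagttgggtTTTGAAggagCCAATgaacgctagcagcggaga
Espl1 (chr15:102296193-102296307, plus strand): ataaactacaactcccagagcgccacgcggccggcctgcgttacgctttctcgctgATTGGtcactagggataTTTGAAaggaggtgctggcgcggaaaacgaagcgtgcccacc
Ube2c (chr2:164769829-164769943, plus strand): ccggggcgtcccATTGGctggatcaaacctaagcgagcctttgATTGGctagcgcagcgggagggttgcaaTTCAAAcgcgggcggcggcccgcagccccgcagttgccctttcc
Prc1 (chr7:80294351-80294465, plus strand): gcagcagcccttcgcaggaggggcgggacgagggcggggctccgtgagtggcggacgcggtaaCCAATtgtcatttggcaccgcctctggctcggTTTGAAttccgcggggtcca
Kif11 (chr19:37376282-37376396, plus strand): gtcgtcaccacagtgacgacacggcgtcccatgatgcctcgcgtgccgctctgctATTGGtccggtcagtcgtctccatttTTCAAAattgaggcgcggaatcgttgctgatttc
Racgap1 (chr15:99651642-99651756, minus strand): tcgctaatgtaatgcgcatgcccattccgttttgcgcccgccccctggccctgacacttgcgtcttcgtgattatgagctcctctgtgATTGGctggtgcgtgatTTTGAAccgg
Ccnb2 (chr9:70421540-70421654, minus strand): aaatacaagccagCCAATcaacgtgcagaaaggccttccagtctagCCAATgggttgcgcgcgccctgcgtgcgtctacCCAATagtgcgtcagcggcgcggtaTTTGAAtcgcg
Pttg1 (chr11:43425967-43426081, minus strand): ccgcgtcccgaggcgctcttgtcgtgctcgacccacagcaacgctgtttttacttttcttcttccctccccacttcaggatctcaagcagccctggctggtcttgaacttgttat
The TTTGAA nearest the start began 15 bases before it in Cdk1 and 18 in Cdc20, and Kif11 and Ube2c held these letters on the opposite strand. Ccnb2 held 3 CCAAT and a TTTGAA 5 bases after its start. Its level was 39.8 and 37.4 CPM under DMSO and 36.8 and 40.6 under B[a]P at passage 20, and 66.6 and 84.6 against 59.4 and 71.0 at passage 25. The letters were thus present in a member whose B[a]P and DMSO libraries overlapped at both passages. None of these motifs stood in the 300 bases listed for Pttg1, whose listed start lies inside the span of the gene (chr11:43420244-43427463). Members with TTTGAA had a median log2 fold change of -0.77 and those with an entry but without it one of -0.54, a difference that was not tested.

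At passage 20 alone the separation was the clearest. Both B[a]P libraries were below both DMSO libraries for 36 of the 40 genes, against 39.0% of all genes, and above them for Pttg1 alone, against 40.4%. The median log2 fold change was -0.68, with 37 negative, and those of Bub3 and Ccnb2 rounded to 0.00. In the planned fit 0 of the 40 passed, where 0.718% of all genes were lower and 0.516% higher, and 5 had an unadjusted p under 0.05, as did 1436 of the 14343 genes. In the paired fit 13 fell, where 6.76% of all genes fell and 5.01% rose, and a block within each passage also gave 13 (7.99% and 5.38%). When only the 4 libraries compared were fitted, 36 fell and Pttg1 rose, among 4087 lower and 4046 higher of the 13480 genes of that fit. The 5 smallest p belonged to Bub1b (-1.16 ± 0.39, adjusted p = 0.237), Espl1 (-1.06 ± 0.39, 0.291), Tpx2 (-0.84 ± 0.34, 0.373), Foxm1 (-0.71 ± 0.30, 0.417) and Kif4 (-0.91 ± 0.42, 0.492). In the paired fit their adjusted p were 0.00384, 0.0388, 0.0302, 0.0491 and 0.0297, so all 5 fell there. That fit holds no pairing at passage 20, so its smaller p reflect the shared estimate of spread. Bub1b had a log2 fold change of -1.16 in both fits, with an SE of 0.39 in the planned and 0.22 in the paired fit.

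At passage 25 the median was much the same, -0.62 with 39 negative, but the spread was larger. Groups did not overlap for 14 genes that were lower, against 11.7% of all genes, while 37 were lower in both same-numbered pairs, against 31.6%. In the planned fit 0 passed (0.00697% of all genes were lower and 0.0418% higher) and 1 had an unadjusted p under 0.05, Cdc25c, as did 3.80% of all genes. In the paired fit Ccna2 and Nuf2 fell, where 1.12% of all genes fell and 1.25% rose, and so they did with a block within each passage (1.29% and 1.42%). Ccna2, cyclin A2, differed by -0.81 in replicate 1 and -0.82 in replicate 2, and Nuf2 by -1.19 and -0.79. The 5 smallest p of the planned fit belonged to Cdc25c (-0.66 ± 0.27), Tpx2 (-0.70 ± 0.34), Ube2c (-0.59 ± 0.29), Bub1b (-0.74 ± 0.39) and Foxm1 (-0.54 ± 0.30), all with an adjusted p of 1.0. When the passages were compared, the B[a]P difference at passage 25 minus that at passage 20 had a median of 0.06 over the 40. For this difference 0 members were called in either fit or by DESeq2 (0.00% of all genes called in both edgeR fits). In the planned fit 0 had an unadjusted p under 0.05, beside 1.59% of all genes. Espl1 (0.59 ± 0.54), Birc5 (-0.51 ± 0.58), Cdc25c (-0.32 ± 0.38), Mad2l1 (-0.49 ± 0.62) and Bub1b (0.42 ± 0.55) had the smallest p of this difference, with an adjusted p of 1.0.

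In cells grown with Cr(VI), the B[a]P values of the 40 had a median of -0.27 over both passages (quartiles -0.42 and -0.14), with 33 negative, beside a median of 0.02 over all genes. In the planned fit 0 passed, where 0.460% of all genes were lower and 0.481% higher. At an unadjusted p under 0.05 there was 1, Ube2c, beside 8.91% of all genes. It was also the 1 member past the threshold with DESeq2, beside 1.34% of all genes lower and 1.74% higher. In the paired fit 5 fell, Aurka, Bub1b, Ccnb1, Plk1 and Ube2c, where 5.08% of all genes fell and 5.38% rose, and a block within each passage also gave 5 (5.47% and 5.82%). All 5 were also among the 20 that fell in control-grown cells. Without the Cr(VI)-grown DMSO library that stood apart, a fit with the block called 8, beside 6.60% of all genes lower and 4.79% higher, and the median was -0.40.

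Ube2c had the smallest p, with a log2 fold change of -0.69 ± 0.21 and an adjusted p of 0.181 in the planned and 0.00535 in the paired fit. Its libraries were at 210 and 298 CPM under DMSO and 142 and 151 under B[a]P at passage 20, and at 246 and 295 against 162 and 198 at passage 25. Plk1 (-1.08 ± 0.50, adjusted p = 0.561 and 0.00494) was at 105 and 116 against 62.4 and 62.4 CPM at passage 20 and at 157 and 290 against 62.5 and 114 at passage 25. For both genes the agents did not overlap at either passage. Foxm1 (-0.45 ± 0.21, 0.571 and 0.0849) was at 169 and 128 against 109 and 96.1 CPM, and at 164 and 188 against 150 and 122.2. Ccnb1 (-0.50 ± 0.24, 0.592 and 0.047) was at 167 and 115 against 107 and 100 CPM, and at 169 and 214 against 119.4 and 140. Bub1b (-0.54 ± 0.28, 0.665 and 0.0413) was at 90.4 and 67.4 against 57.3 and 53.9 CPM, and at 96.3 and 122.3 against 66.4 and 81.1. None of these 3 overlapped between the agents either. The genes of this paragraph were picked by smallest p in these same libraries, so their separation is no separate support.

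Cenpe, Cenpf and Top2a did not separate at passage 25. Cenpe was at 140 and 86.2 CPM under DMSO and 83.2 and 53.0 under B[a]P at passage 20, but at 56.0 and 18.8 under DMSO and 106 and 7.87 under B[a]P at passage 25. Cenpf was at 94.8 and 57.0 against 46.5 and 42.1, and then at 40.7 and 15.1 against 93.8 and 9.81. Top2a was at 401 and 199 against 232 and 167, and then at 229 and 137 against 303 and 93.4. In replicate 1 of passage 25 all 3 were higher under B[a]P, and in replicate 2 all 3 were lower. Espl1 was at 87.9 and 57.8 against 53.4 and 40.4, and then at 70.9 and 92.9 against 85.5 and 52.0. Kif4 was at 64.9 and 44.4 against 44.8 and 36.2, and then at 43.6 and 26.7 against 49.1 and 20.3. Tpx2 was at 240 and 195 against 177 and 148, and then at 213 and 237 against 183 and 188. Of these genes Tpx2 alone did not overlap between the agents at either passage.

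Same-numbered pairs of Cr(VI)-grown cells had a median difference over the 40 of -0.53 (replicate 1) and -0.30 (replicate 2) at passage 20. At passage 25 these medians were -0.11 and -0.52. In replicate 1 of passage 25, 22 of the 40 were negative, against 38 in replicate 2. Without replicate 1 of Cr(VI)-grown B[a]P cells at passage 25 the median over both passages was -0.58, and without replicate 1 of the DMSO cells it was -0.16, so these libraries set its size. Groups did not overlap for 18 genes that were lower at passage 20 (16.2% of all genes) and for 10 at passage 25 (6.31%), and 20 were lower in both pairs of passage 25 (29.7%). No member was higher without overlap at either passage, where 17.1% and 12.1% of all genes were.

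**Figure D4:**
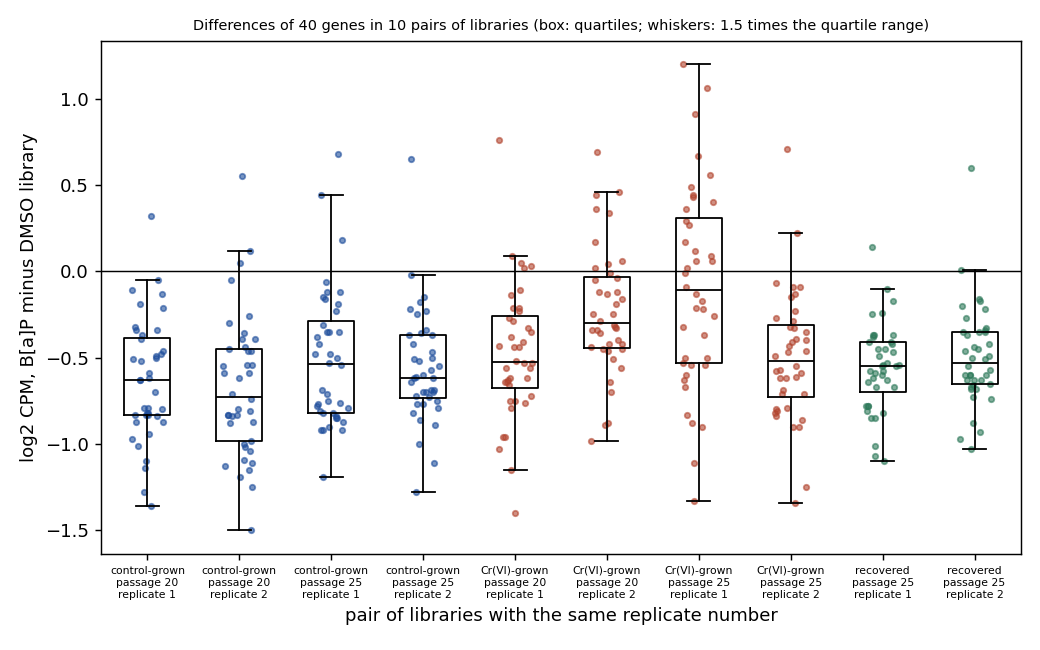
Each box holds the 40 genes, and each point is the log2 CPM of 1 gene in a B[a]P library minus the DMSO library of the same growth history, passage and replicate number (x axis). Medians lie between -0.73 and -0.30 in 9 of the 10 pairs and at -0.11 in replicate 1 of Cr(VI)-grown cells at passage 25, whose box reaches above 0.

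Whether the B[a]P effect differed between Cr(VI)-grown and control-grown cells was tested as an interaction. Its median over the 40 was 0.33, beside 0.09 over all genes, and 35 values were positive. No member passed the threshold in the planned or the paired fit or with DESeq2, and neither edgeR fit called a gene (0.00% of all genes). At an unadjusted p under 0.05 there were 0 members in the planned fit (0.418% of all genes) and 3 in the paired fit (8.35% of all genes). The smallest p belonged to Kif4 (0.60 ± 0.42), Cdc25c (0.34 ± 0.27), Tpx2 (0.42 ± 0.34), Prc1 (0.59 ± 0.48) and Kif23 (0.78 ± 0.65), all with an adjusted p of 1.0. Without replicate 1 of Cr(VI)-grown B[a]P cells at passage 25 the median interaction was 0.11, and without replicate 1 of control-grown DMSO cells it was 0.20. A weaker effect in Cr(VI)-grown cells was thus not shown for any of the 40.

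In recovered cells the B[a]P values were again negative for 39 of the 40, with a median of -0.53. Same-numbered pairs had medians of -0.55 and -0.53. In both pairs 38 genes were lower, against 32.4% of all genes, and groups did not overlap for 9 of them, against 7.26%. No member passed the threshold in the planned fit (0.00697% of all genes lower, 0.0488% higher), in the paired fit (0.586% lower, 0.760% higher), with a block within each passage (0.690% and 0.809%) or with DESeq2, and 3 had an unadjusted p under 0.05 in the planned fit (3.67% of all genes), against 19 in the paired fit (11.6%). These 3 were Ube2c (-0.71 ± 0.29), at 232 and 303 against 132 and 195 CPM, Ccnb1 (-0.79 ± 0.34), at 143 and 254 against 91.5 and 138, and Bub1b (-0.88 ± 0.39), at 81.9 and 163 against 47.5 and 85.9. Cdk1 (-0.70 ± 0.33) and Tpx2 (-0.70 ± 0.34) followed, and the 5 shared an adjusted p of 1.0 in the planned fit and had 0.0708 to 0.202 in the paired fit.

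Of the other genes followed in each library, Plk1 was at 73.5 and 298 CPM against 41.7 and 146 in recovered cells, and Tpx2 at 176 and 324 against 113 and 195. Top2a was at 328 and 158 against 234 and 124.5, Cenpe at 66.1 and 15.7 against 58.6 and 11.1, and Cenpf at 37.7 and 10.2 against 28.4 and 8.84. Every one of these was lower under B[a]P in both pairs. Foxm1 was at 151 and 190 against 95.1 and 151 CPM, Espl1 at 52.6 and 92.5 against 40.8 and 59.6, and Kif4 at 46.5 and 40.8 against 30.7 and 25.5. Foxm1, by a margin under 1 CPM, and Kif4 were the genes of these 8 whose DMSO and B[a]P libraries did not overlap. Pttg1 was at 75.9 and 199 under DMSO and 83.6 and 302 under B[a]P, the 1 member higher in both pairs.

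Growth with Cr(VI) without B[a]P went with smaller differences, measured against the same control-grown DMSO libraries as the B[a]P values above. Over both passages the median under DMSO was -0.25, with 34 of the 40 negative, beside -0.03 over all genes. No member passed in the planned fit, which called 0 genes (0.00%) in either direction, nor with DESeq2. In the planned fit 0 members had an unadjusted p under 0.05, beside 4.78% of all genes. The paired fit called 0, with 0.223% of all genes lower and 0.307% higher. A fit with a replicate block within each passage called Top2a (adjusted p = 0.0391), where 1.76% of all genes were lower and 1.95% higher, although replicate numbers did not pair the libraries of passage 20. The 5 smallest p of the planned fit belonged to Kif4 (-0.60 ± 0.29), Top2a (-0.79 ± 0.43), Anln (-0.66 ± 0.40), a scaffold of the cleavage furrow, Bub1b (-0.43 ± 0.27) and Prc1 (-0.47 ± 0.34), a bundler of midzone microtubules, all with an adjusted p of 0.895. Genes of chromosome structure and cytokinesis had medians of -0.78 and -0.57, and those of the mitotic kinases and of anaphase medians of -0.09 and 0.03. The library that stood apart belonged to this comparison. Without it, a fit with the block gave a median of -0.22 and called 0.

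At passage 20 the median for Cr(VI) growth was -0.29 (-0.18 without that library and -0.49 without the other), and groups did not overlap for 22 genes that were lower, against 25.2% of all genes. Bub1b (-0.57 ± 0.39, adjusted p = 0.959), Anln (-0.80 ± 0.56, 0.965), Top2a (-0.86 ± 0.60, 0.969), Kif4 (-0.54 ± 0.42, 0.995) and Kif23 (-0.81 ± 0.65, 1.0) had the smallest p. At passage 25 the median was -0.31, beside -0.10 over all genes, and 3 genes were lower without overlap, against 10.5%. Without replicate 1 of control-grown DMSO cells it was -0.16, and without replicate 2 of Cr(VI)-grown DMSO cells -0.20. Kif4 (-0.66 ± 0.42), Top2a (-0.72 ± 0.60), Mad2l1 (-0.50 ± 0.44), Tpx2 (-0.37 ± 0.34) and Mki67 (-0.85 ± 0.79) had the smallest p, with an adjusted p of 0.971. At either passage 0 members passed in the planned fit (0.00% of all genes) or with DESeq2. Nor did any pass in the paired fit, which at passage 20 called 0.432% of all genes lower and 0.586% higher. A block within each passage also called 0 members (at passage 20, 1.43% and 1.46% of all genes). In the planned fit 0 had an unadjusted p under 0.05, beside 6.32% of all genes at passage 20 and 1.06% at passage 25. Mki67, the proliferation antigen Ki-67, and Mad2l1 were negative in both pairs of passage 25.

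Recovered cells under DMSO were compared with the same control-grown libraries of passage 25. The median was -0.22, with 33 negative, and 1 gene, Birc5, was lower without overlap, against 4.23% of all genes. No member passed in the planned fit (0.00% of all genes), in the paired fit or with DESeq2. In the planned fit 0 had an unadjusted p under 0.05, beside 1.02% of all genes. The smallest p belonged to Mki67 (-1.06 ± 0.80), Birc5 (-0.44 ± 0.41), the survivin subunit of the chromosomal passenger complex, Cenpf (-1.02 ± 0.98), Cdc25c (-0.24 ± 0.27) and Kif4 (-0.34 ± 0.42), with an adjusted p of 1.0. The median was -0.34 in replicate 1 and -0.07 in replicate 2, so the pairs gave different sizes. Without replicate 1 of recovered DMSO cells it was -0.07, without replicate 2 -0.37, and without replicate 1 of the control-grown cells -0.13.

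Across the 40 genes the B[a]P difference in control-grown cells was more negative for genes with a longer genomic span. Spearman's rho was -0.61 and Pearson's r with log2 span -0.51 over both passages, and rho was -0.62 at passage 20 and -0.37 at passage 25. Over 14296 genes of all kinds rho was -0.36, so a relation of this sign was present in the whole table. With the GC content of the transcript, rho over the 40 was 0.21 over both passages, 0.01 at passage 20 and 0.48 at passage 25. With mean CPM it was 0.26, 0.10 and 0.45. Span was thus not the feature with the largest rho at passage 25. In Cr(VI)-grown cells over both passages rho with GC content was -0.48. The points of each relation share the same 8 libraries or fewer. The 10 members under 10 kb had a median of -0.51 and the 16 of 30 kb or more a median of -0.80, while all genes of those spans had medians of 0.13 and -0.24. In each span range the members' median was thus below that of all genes, a gap that was not tested. In Cr(VI)-grown cells rho over the 40 was 0.26 and in recovered cells 0.20. The Cr(VI) value uses the DMSO library of passage 20 that stood apart. Its difference from replicate 1 itself had a rho with span of -0.70 over the 40 and -0.47 over 14296 genes. The part of that library in the 0.26 was not tested.

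**Figure D5:**
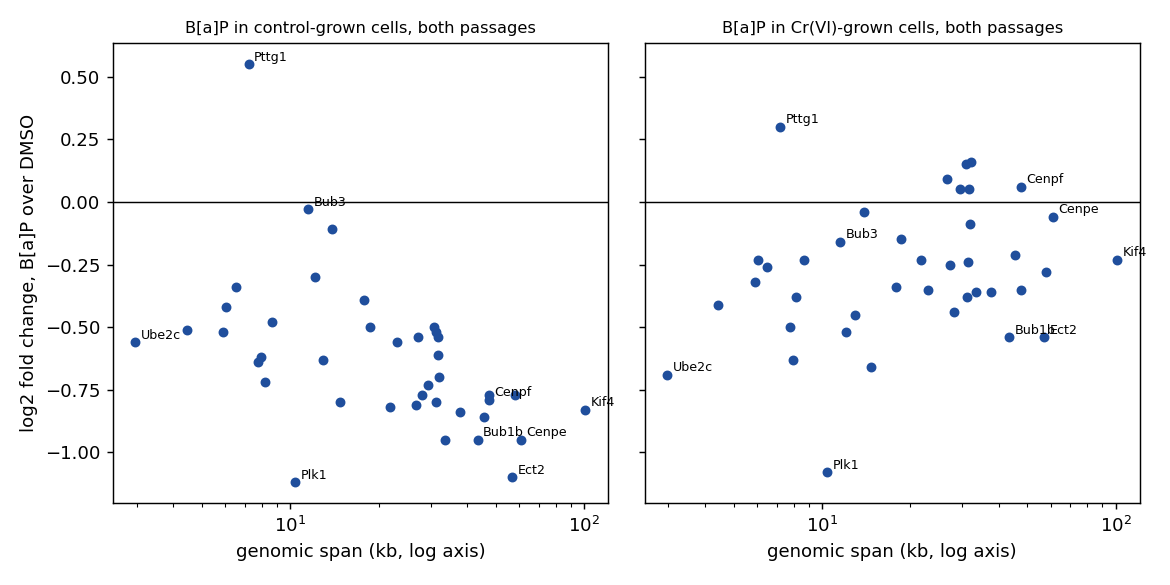
Each point is 1 of the 40 genes; the x axis is its genomic span in kb on a log axis and the y axis its log2 fold change for B[a]P over DMSO over both passages, in control-grown cells (left) and Cr(VI)-grown cells (right). Longer genes such as Ect2 at 57.0 kb lie lower in the left panel, where rho was -0.61, and not in the right panel, where it was 0.26; Plk1 lies lowest in both.

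Other genes of the same pathway were read from lists of textbook members, whose paired-fit counts stand beside the 8.31% of all genes that fell and 7.02% that rose. In control-grown cells over both passages, 33 of 37 other mitotic genes tested had a negative log2 fold change, with a median of -0.62. In the planned fit 1 of them fell, Depdc1b (-1.38 ± 0.26, adjusted p = 0.0148), and in the paired fit 14 fell and 2 rose, Gtse1 and Psrc1, which were singled out after their values were seen. Gtse1, a microtubule-binding protein that also restrains p53, was at 0.68 ± 0.22 and Psrc1, a spindle protein, at 0.54 ± 0.27, so Pttg1 was not alone in its sign. Of 29 other kinetochore genes 24 were negative, with a median of -0.31, and 6 fell and 1 rose in the paired fit. Of 20 condensin and cohesin genes 19 were negative and 3 fell there. Subunits and inhibitors of the anaphase-promoting complex had a median of -0.22 in 16 genes, of which 1 fell there, and 24 S phase genes had one of -0.30, of which 5 fell there.

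The regulators of these genes were lower as well. Of 21 genes of the DREAM, B-MYB and FOXM1 complexes and the E2F family 20 were negative, with a median of -0.27, and 0 passed in the planned fit while 6 fell in the paired fit. The G2 checkpoint list was mixed, with a median of 0.37 in 16 genes, of which 6 were negative. In the planned fit 4 of these rose, Btg2 (2.56 ± 0.25, adjusted p = 0.00042), Cdkn1a (2.37 ± 0.39, 0.0075), Plk3 (1.99 ± 0.35, 0.0113) and Gadd45b (1.56 ± 0.32, 0.0227). In the paired fit 5 of the list rose, Ccng1 being the other, and Wee1 and Atm fell. Cdkn1a encodes p21, and Btg2 and Plk3 are p53 targets as well. Cdkn1a was at 188 and 188 CPM under DMSO and 1066 and 1072 under B[a]P in control-grown cells at passage 20. In Cr(VI)-grown cells of the same passage it was at 560 and 694 under DMSO and 1399 and 1679 under B[a]P. DMSO libraries of Cr(VI)-grown cells thus already held more Cdkn1a than control-grown ones at passage 20, as they did in the same-numbered pairs of passage 25, with 289 and 491 against 176 and 219 CPM. That difference over both passages was 1.36 ± 0.38, with an adjusted p of 0.895 in the planned and 0.0352 in the paired fit. Of the marker lists, 1 macrophage gene of 5 tested (Cd68) rose and 1 cholangiocyte gene of 4 (Sox9) fell under B[a]P in control-grown cells in the planned fit, and 0 of 9 hepatocyte, 7 stromal and 3 endothelial genes passed. With the block at passage 25 Fgb (hepatocyte, -1.36 ± 0.40, adjusted p = 0.0336) and Pdgfrb (stromal, -0.55 ± 0.13, 0.0122) also fell and Des (stromal, 1.15 ± 0.36, 0.0467) also rose. The part of other cell types in the results was not tested.

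In Cr(VI)-grown cells over both passages the same lists were read: 25 of 37 other mitotic genes were negative with a median of -0.20, and 3 fell and 1 rose in the paired fit. The DREAM, B-MYB and FOXM1 list had a median of -0.01 there and 4 that fell, and Btg2 (2.25 ± 0.25, adjusted p = 0.00198) was the 1 gene of the G2 checkpoint list that rose in the planned fit. With the block at passage 25, 4 of that list rose, Btg2, Plk3 (1.44 ± 0.16, adjusted p = 0.000165), Cdkn1a (1.27 ± 0.24, 0.00434) and Gadd45b (1.07 ± 0.26, 0.0184). In that fit 5.08% of all genes fell and 5.38% rose. In recovered cells 30 of 37 other mitotic genes were negative with a median of -0.48, and none passed in either fit.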

How the data were processed

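The authors deposited raw counts for Entrez genes in 20 libraries, in 1 table. Tools named, without their roles, per the submitters' processing notes are TopHat, bcl2fastq, DESeq and CASAVA 1.8, with the build mm10. How reads were counted, with which annotation and whether by strand, is not given in the sources used here. Symbols and spans came from RefSeq (GRCm38.p6, the same assembly as mm10; 23275 of 23373 IDs matched), and transcript GC content from GENCODE M21. The 40 genes and all lists were chosen with earlier results of these data known.

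Counts were filtered with filterByExpr, scaled by TMM and fitted in edgeR 4.0.16 (R 4.3.3) with 10 group means, leaving 10 residual degrees of freedom. Log2 fold changes carry their SE, and tests were two-sided. Replicate differences correlated between groups at 0.81 to 0.92 at passage 25 (15 pairs of groups) and at -0.00 to 0.59 at passage 20 (6 pairs, median 0.20), so the replicate numbers paired the libraries of passage 25 only. Alternatives were a replicate block, other scalings, DESeq2 1.42.0, no count filter, only the groups compared, and leaving out libraries. Of these, 2 were chosen after seeing the data, without all replicate 2 libraries of passage 25 and a block without 1 Cr(VI)-grown DMSO library. The limit of the block to passage 25 also rests on the correlations above, which come from these same libraries. Any of the 40 could be named; SE and adjusted p are given for the 5 with the smallest p in each comparison, since none passed the planned fit.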

Additional observations from a re-analysis of the deposited data

Results flagged for a closer look

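For 3 of the 40 genes the effect of Cr(VI) growth under DMSO had opposite signs at the 2 passages in every same-numbered pair. Of all genes, 28.6% were lower and 28.2% higher in both pairs of passage 20, and 38.3% and 33.3% in both of passage 25. The share of all genes with such opposite signs was not counted, so 3 of 40 may be no more than usual. Replicate numbers did not pair the libraries of passage 20. Plk1 was lower in Cr(VI)-grown cells in both pairs of passage 20 (-0.58 and -0.38 on the log2 scale) and higher in both of passage 25 (0.89 and 0.05), a difference of 0.95 between the passages. Cdc25b, the phosphatase that activates CDK1, was at -0.38 and -0.42 at passage 20 and at 0.71 and 0.21 at passage 25, a difference of 0.86. Incenp, the scaffold of the chromosomal passenger complex, was at 0.25 and 0.22 at passage 20 and at -0.21 and -0.42 at passage 25, a difference of -0.55. These differences were not tested. Plk1 and Cdc25b were among the genes that differed between replicate numbers in all 6 groups of passage 25, and the part of that in these values was not tested.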

How the results depend on the processing

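In all 11 comparisons the count of the 40 genes past the threshold was 0 in the planned fit, with no count filter, with DESeq2 size factors and without any single library (range 0 to 0). With control-grown cells under B[a]P against DMSO, averaged over the passages, it was 26 with a replicate block within each passage, 20 with the block at passage 25 only, and 1 each with library totals, DESeq2 and only the groups compared. Without all replicate 2 libraries of passage 25 it was 5. At passage 20 it was 13 with either block, 37 with only the groups compared and 6 without those libraries, and at passage 25 it was 2 with either block. For B[a]P in Cr(VI)-grown cells it was 5 with either block, 1 with DESeq2, 3 without those libraries and 8 with the block and without replicate 2 of Cr(VI)-grown DMSO cells at passage 20. For Cr(VI) growth over both passages it was 1 with the block within each passage. Pairing by replicate number changed no other count. All-gene counts for that first comparison went from 182 lower and 134 higher to 1192 and 1007 with the block at passage 25. They were 111 and 130 with library totals, and 293 and 229 of 13725 genes with only the groups compared. Fits that left out libraries kept only 1 library in some groups, so no conclusion is drawn from their counts.

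Library totals shifted the median of all genes to 0.18 for B[a]P in Cr(VI)-grown cells (the 40: -0.10), to -0.21 and -0.31 for Cr(VI) growth over both passages and at passage 25 (-0.42 and -0.52), and to 0.32 for the interaction (0.59). The median of passage 25 minus passage 20 for B[a]P ranged from -0.09 to 0.20. Without replicate 1 of control-grown DMSO cells at passage 25, 5 values changed sign: Cr(VI) growth at passage 25 for Mad2l1 (0.06) and Mki67 (0.17), recovered against control-grown cells for Cenpf (0.32) and Kif4 (0.06), and the passage difference for Mad2l1 (0.08). The cause was not tested. Without any single library, these 5 ranged from -0.91 to 0.06, from -1.57 to 0.17, from -2.25 to 0.32, from -0.66 to 0.06 and from -0.88 to 0.08. Member counts were 93 or more in every library, so no value rests on a count near 0.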
